A study of Mus musculus with 6 samples.

Results

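Integrins are adhesion receptors of the cell surface, each built of 1 alpha and 1 beta chain, and the chains described here are 10 that are known from T cells and the cells they meet. They were chosen by gene name, as Itgae, Itgb7, Itga4, Itgb1, Itgal, Itgb2, Itgav, Itgb3, Itga2b and Itgb8, and all 10 were found among the 21362 genes of the count table. Transcripts were measured by RNA sequencing in CD4+ T cells of the mouse, the helper lymphocytes, with 6 libraries in all. The series concerns sorafenib, an oral inhibitor of several protein kinases, given to regulatory T cells or withheld. The labels do not say which libraries came from treated cells, and they give no strain, age, dose or time. All 6 thus stand outside any group and are called library 1 to library 6 after the number in their titles. Values in a series are in that order.

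An integrin reaches the surface only as a pair, so the partners of a chain bear on what its transcript can give rise to. In T cells, alpha L with beta 2 forms LFA-1, which binds ICAM-1 on antigen-presenting cells and endothelium. Alpha 4 with beta 1 forms VLA-4, a receptor for VCAM-1 and fibronectin, and alpha 4 with beta 7 directs lymphocytes to the gut through MAdCAM-1. Alpha E, known as CD103, pairs with beta 7 to bind E-cadherin and marks many resident T cells of epithelia and some regulatory T cells. Alpha v pairs with several beta chains, and its pairing with beta 8 on regulatory T cells is known to release active TGF-beta from its latent form. Alpha IIb with beta 3 is the fibrinogen receptor of platelets.

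Total counts lay between 32435799 and 36316162 per library, and the 10 chains took from 0.179% to 0.195% of them. Levels within a gene are CPM, its counts per 1000000 of a library total adjusted for RNA composition, and levels between genes are the deposited FPKM, which divide by gene length. A fold range is the highest library over the lowest, on the log2 scale with a prior count of 2. With no replicates known, no test was made, and 95% intervals are exact Clopper-Pearson intervals that cover counting error only. The 9 T cell markers summed to between 2698 and 3314 CPM in every library. Of these 9, 0 ranged 2-fold, where 10.5% of all genes averaging 1 CPM or above did. Cd28, a co-stimulatory receptor, was widest at 1.67-fold. Cd8a, which defines killer T cells, had at most 23 reads, although Cd8b1, its partner chain, lay between 8.15 and 9.57 CPM. Foxp3, the regulatory T cell factor, had between 229 and 465 reads. It stood at 7.37, 7.66, 7.86, 11.9, 13.4 and 11.2 CPM and was highest in libraries 4, 5 and 6. Scaling by plain total counts moved the median gene by up to 0.12 log2 units between library 1 and library 4, so directions that depend on it are given below with both scalings.

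Promoter sequences are shown for 3 chains, alpha 4 and beta 7, whose transcripts were both highest in libraries 4, 5 and 6, and alpha v, which was lowest there. Sequences are RefSeq windows on build GRCm38.p6, from 250 bases before to 50 bases after the start site, 5′ to 3′ on the strand of the gene. The reads were aligned to another build, so these coordinates belong to the sequences only. A promoter was found for 6 of the 10 chains. The Itga4 window lies at chr2:79255176-79255475 on the plus strand, the Itgb7 window at chr15:102231886-102232185 on the minus strand, and the Itgav window at chr2:83724147-83724446 on the plus strand. Capitals mark matches, on either strand, to TGTGGT for RUNX factors, GGAAGT for ETS factors, GGGCGG for a GC box, CCACCC for a CACCC box, TGANTCA for AP-1, AGATAA for factors of the GATA family and CACGTG for an E-box. No 2 matches overlapped in these windows.
Itga4: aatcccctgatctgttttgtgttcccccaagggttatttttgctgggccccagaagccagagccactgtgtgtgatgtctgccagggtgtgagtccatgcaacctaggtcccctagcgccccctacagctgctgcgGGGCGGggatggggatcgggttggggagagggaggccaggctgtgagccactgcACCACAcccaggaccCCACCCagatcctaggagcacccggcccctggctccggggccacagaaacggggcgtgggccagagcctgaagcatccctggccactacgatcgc
Itgb7: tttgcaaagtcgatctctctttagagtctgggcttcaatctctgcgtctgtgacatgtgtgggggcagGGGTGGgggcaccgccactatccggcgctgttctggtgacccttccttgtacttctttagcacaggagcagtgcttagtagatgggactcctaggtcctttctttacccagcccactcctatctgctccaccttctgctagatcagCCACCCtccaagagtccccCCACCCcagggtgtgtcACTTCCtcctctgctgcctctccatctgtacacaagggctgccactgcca
Itgav: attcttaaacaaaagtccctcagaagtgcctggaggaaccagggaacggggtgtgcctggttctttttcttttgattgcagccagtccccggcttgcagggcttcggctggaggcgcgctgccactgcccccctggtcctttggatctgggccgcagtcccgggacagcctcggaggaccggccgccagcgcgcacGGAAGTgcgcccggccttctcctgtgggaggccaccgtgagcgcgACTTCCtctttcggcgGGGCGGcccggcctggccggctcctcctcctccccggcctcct
In the Itga4 window the matches are a GC box that starts at -114 from the start site, a RUNX match at -60 and a CACCC box at -45. The Itgb7 window holds 3 CACCC boxes and an ETS match at its start site, and the Itgav window holds 2 ETS matches and a GC box. Of all 32851 promoter windows, 16.8% hold the RUNX letters, 23.8% the ETS letters, 35.7% the GC box and 31.5% the CACCC box. Of the 6 windows of integrin chains, 1, 3, 3 and 4 hold them. The AP-1, GATA and E-box letters were in 0 of the 6 windows and in 7.81%, 11.2% and 7.15% of all windows. A match of this kind is a description of the letters and not a binding site.

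The chains differed widely in level. Itgb2 and Itgal, the pair of LFA-1, were the most abundant, with medians of 144 and 105 FPKM, and Itgb1 followed with 54.6 FPKM. Itgav had 38.9 FPKM, Itgb7 34.7, Itgb3 13.2, Itga4 4.35, Itga2b 2.93, Itgae 0.676 and Itgb8 0.185 FPKM. The ranges over the 6 libraries overlapped for 2 neighbours in this order, Itgav with Itgb7 and Itga4 with Itga2b, and were apart for the other 7. The order depends on the gene lengths behind the FPKM values. For Itgb7 that length was 5708 bases, while its exons in the GENCODE M21 annotation cover 2770 bases. With GENCODE lengths the median of Itgb7 would be 71.6, above Itgb1 at 56.1, and the order of the other 9 among themselves would be as above.

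**Figure D1:**
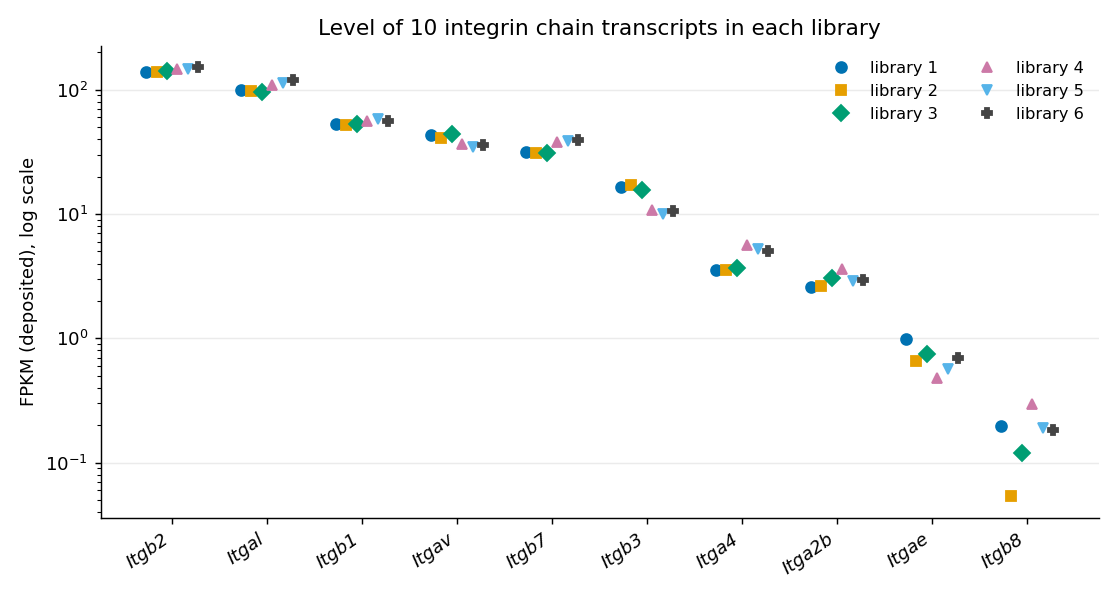
Deposited FPKM on a log axis for each of the 10 chains, with 1 point per library and the chains ordered by their median. The levels run from 151 FPKM for Itgb2 in library 6 to 0.0538 FPKM for Itgb8 in library 2.

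Of the 10 chains, 2 ranged 2-fold or more, Itgb8 and Itgae, and 3 ranged 1.5-fold or more, with Itgb3 as the third. Over the 11516 genes averaging 1 CPM or above, the shares past these ranges were 10.5% and 27.6%. All 10 chains passed that minimum. The median fold range of the chains was 1.33, beside 1.29 for all genes. Itgb8 and Itgae were also the least abundant, and among genes with a mean from 1 to under 5 CPM 39.5% ranged 2-fold. Of the 8 chains averaging 10 CPM or above, 0 ranged 2-fold and 1 ranged 1.5-fold, where the shares over all such genes were 3.33% and 13.5%. The intervals of the highest and the lowest library were apart for 9 of the 10 chains, with Itgb1 as the exception, and for 85.0% of all genes.

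**Figure D2:**
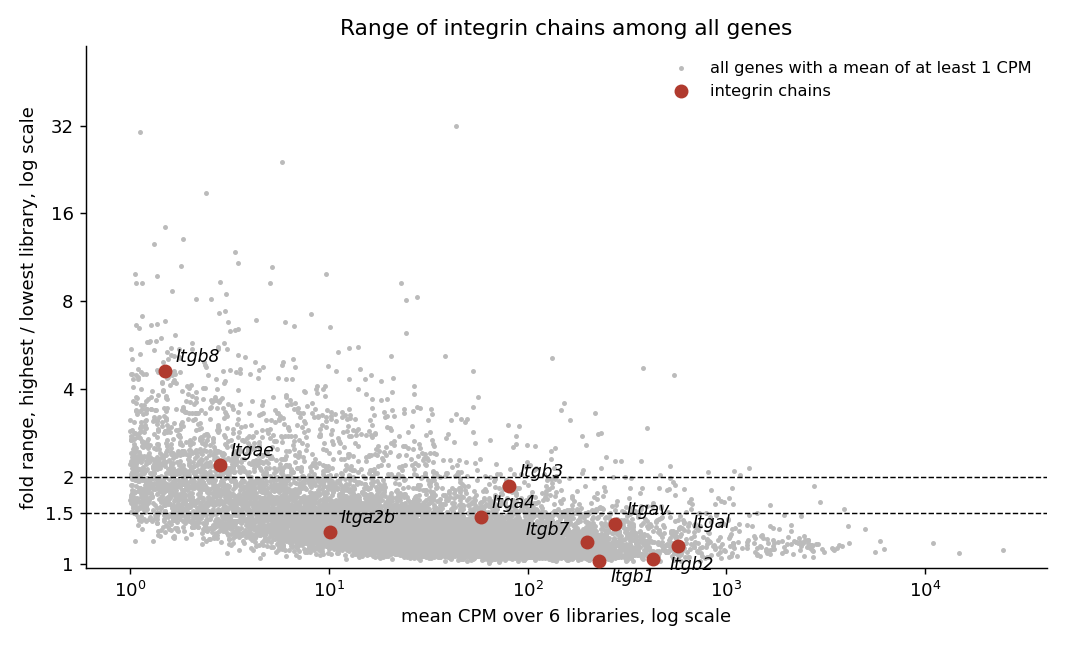
Fold range of each gene, highest over lowest library, against its mean CPM, both on log axes, with the 10 chains in red and dashed lines at 1.5-fold and 2-fold. Itgb1 and Itgb2 lie at the lower edge at 1.03-fold and 1.04-fold, and Itgb8 lies highest of the chains at 4.62-fold.

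The LFA-1 chains were abundant and nearly level. Itgal stood at 562, 555, 542, 569.7, 584 and 624 CPM, a range of 1.152-fold. Library 6 was highest and library 3 lowest, and the 95% interval of library 6, from 616 to 633 CPM, lay above that of every other library. With plain total counts Itgal stood at 539, 532, 524, 595, 610 and 645 CPM, a range of 1.23-fold. Itgb2, the beta chain of leukocyte integrins, stood at 434, 432, 435, 417, 418 and 435 CPM, a range of 1.04-fold. Libraries 4 and 5 were the lowest in CPM, but with the deposited FPKM, which scale by plain totals, Itgb2 stood at 139.9, 139, 141, 147, 147 and 151, and libraries 4, 5 and 6 were the highest. Only 0.425% of genes ranged less than Itgb2 in CPM. The ratio of Itgal to Itgb2 in FPKM, in which library scaling cancels, was 0.711, 0.704, 0.683, 0.749, 0.767 and 0.787. It was highest in library 6 and lowest in library 3, with a range of 1.152-fold. With GENCODE lengths the median of this ratio would be 0.618 in place of 0.730.

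Itgal supplied nearly all alpha chain transcripts that can pair with beta 2. Its share of their summed FPKM was between 99.8% and 99.9% in each library. Itgam, which encodes alpha M of macrophages and granulocytes, had between 6 and 16 reads, and Itgax, the alpha X chain typical of dendritic cells, between 2 and 11 reads. Of the 12 myeloid markers, 11 had a row and summed to between 11.4 and 14.8 CPM, of which Cd68, a lysosomal protein, made up 8.68 to 12.1 CPM. Lyz2, Csf1r and Cd14 had at most 4 reads in any library. Flt3, a growth factor receptor of progenitors with a mean of 1.36 CPM, ranged 2.18-fold, the 1 at 2-fold or more among the 2 myeloid markers averaging 1 CPM or above, and was named after its values were seen.

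The chains of VLA-4 and of the gut-homing receptor differed in how they varied. Itga4 stood at 49.2, 48.9, 50.5, 71.0, 65.9 and 64.0 CPM, a range of 1.45-fold. Library 4 was highest, with an interval from 68.4 to 73.8 CPM, and library 2 lowest, with 46.6 to 51.3 CPM. With plain total counts the range was 1.58-fold, past 1.5-fold. Itgb7 stood at 188, 185, 181, 207, 211 and 216 CPM, a range of 1.19-fold, also with libraries 4, 5 and 6 highest. Itgb1, the shared beta chain of many matrix receptors, stood at 230.3, 227, 231, 227, 234 and 227 CPM. Its range of 1.03-fold was smaller than that of all but 0.0868% of genes, and all 6 of its intervals overlapped. With plain total counts Itgb1 ranged 1.12-fold, with library 2 lowest, and with DESeq2 size factors library 1 was highest in place of library 5.

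Per length, Itga4 was far below both of its partners. The ratio of Itga4 to Itgb1 in FPKM was 0.0678, 0.0682, 0.0695, 0.0993, 0.0894 and 0.0895, and that of Itga4 to Itgb7 was 0.113, 0.114, 0.120, 0.148, 0.135 and 0.128. Both ratios were highest in library 4 and lowest in library 1. With GENCODE lengths the medians would be 0.0731 in place of 0.0794 for the first and 0.0570 in place of 0.124 for the second. In the annotation, Cerkl, a gene on the opposite strand, covers 8.04% of the exonic bases of Itga4. The strand setting of the counting is not given in the sources used here, so reads of the pair in that stretch cannot be told apart. Cerkl itself had between 5 and 34 reads, against at least 1529 for Itga4.

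**Figure D3:**
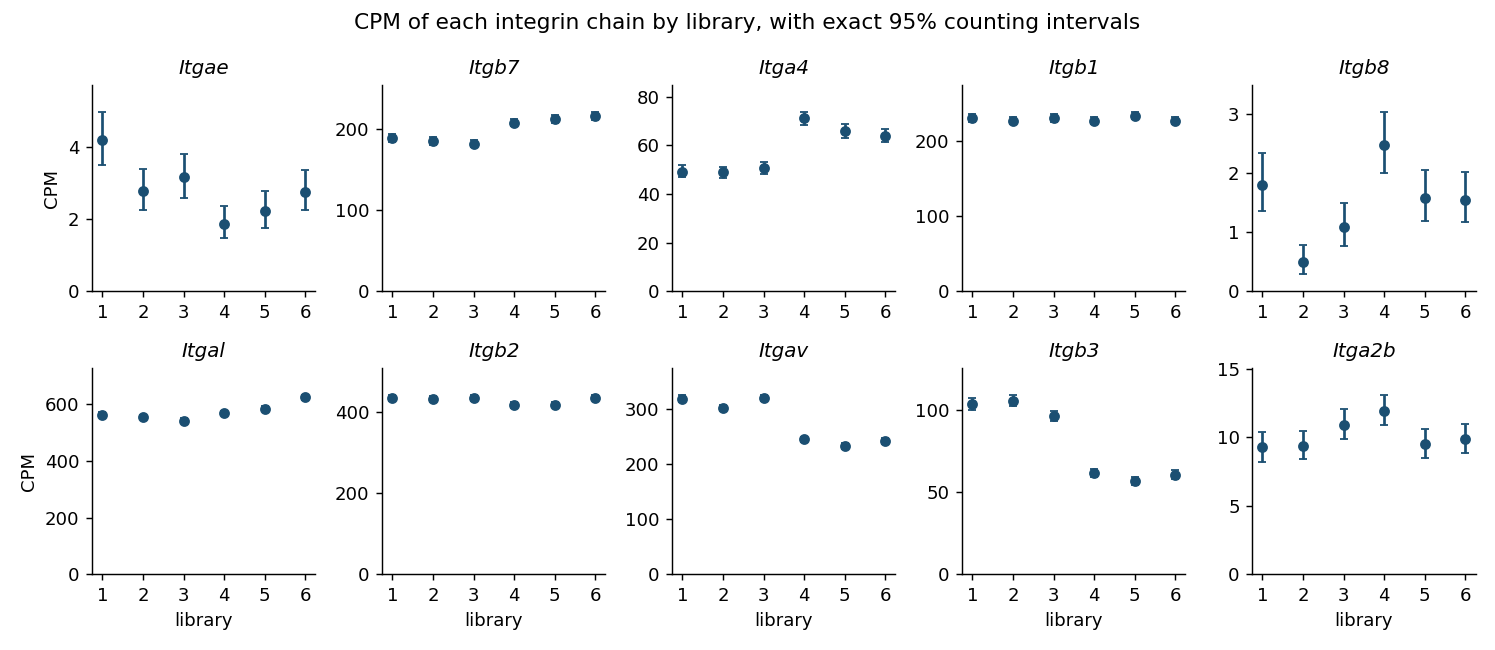
CPM of each chain in libraries 1 to 6, with exact 95% intervals of counting error as bars and every axis starting at 0. Itga4 and Itgb7 lie higher in libraries 4, 5 and 6, Itgav and Itgb3 lie lower there, and Itgb1 and Itgb2 are level.

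Itgae, which encodes CD103, was scarce. It had 130, 96, 110, 71, 77 and 98 reads, or 4.18, 2.77, 3.15, 1.87, 2.21 and 2.76 CPM. Library 1 was highest, with an interval from 3.496 to 4.97 CPM, and library 4 lowest, with 1.46 to 2.36 CPM, and these intervals were apart. The interval of library 1 overlapped that of library 3 only, and the interval of library 4 overlapped those of libraries 2, 5 and 6. The fold range was 2.20. It was 1.67 without library 1, 1.87 without library 4 and 1.87 on FPKM with a pseudocount of 0.1, all below 2-fold. The range stayed above 2-fold in the other settings run for it. It was 2.23 with DESeq2 size factors or a prior count of 0.5, and 2.02 with plain total counts. Without library 2, 3, 5 or 6 it was 2.20. Haspin, a mitotic kinase gene, lies on the opposite strand within the Itgae gene and shares 0 exonic bases with it. Haspin stood at 4.67, 4.91, 4.36, 6.20, 7.30 and 7.99 CPM and was highest in libraries 5 and 6, unlike Itgae.

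Itgb7 transcripts outnumbered those of both alpha partners per length. The summed FPKM of Itgae and Itga4 was between 0.135 and 0.161 times that of Itgb7. Within that sum, Itgae made up 21.6%, 15.6%, 16.8%, 7.88%, 9.83% and 12.3%. Its share was largest in library 1 and smallest in library 4. The ratio of Itgae to Itgb7 ran from 0.0127 in library 4 to 0.0312 in library 1, or from 0.00546 to 0.0135 with GENCODE lengths.

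Itgav and Itgb3 were both lowest in libraries 4, 5 and 6. Itgav, the alpha chain of receptors for vitronectin and latent TGF-beta, stood at 319, 301, 319, 245, 233 and 241 CPM, a range of 1.37-fold. Library 3 was highest, with an interval from 313 to 325 CPM, and library 5 lowest, with 228 to 238 CPM, while with DESeq2 size factors library 1 was highest. Itgb3, the beta chain it shares with platelets, stood at 104, 106, 96.3, 61.6, 56.8 and 60.6 CPM. Its range of 1.86-fold was the largest among the 8 more abundant chains, and 86.9% of all genes ranged less. The highest library exceeded the lowest by a ratio of 1.86, with a counting interval from 1.76 to 1.97. With plain total counts the range was 1.71-fold and libraries 4, 5 and 6 were again lowest.

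Itgb3 varied more than its main partner. The ratio of Itgb3 to Itgav in FPKM was 0.381, 0.413, 0.354, 0.296, 0.286 and 0.295. It was highest in library 2 and lowest in library 5. With GENCODE lengths it would be 0.591, 0.640, 0.549, 0.459, 0.444 and 0.457, with the same highest and lowest libraries. Among the beta chains that can pair with alpha v, Itgb1 made up 73.9%, 73.3%, 75.5%, 82.0%, 83.4% and 82.5% of summed FPKM, and Itgb3 23.4%, 24.0%, 22.1%, 15.7%, 14.3% and 15.5%. Itgb5, the beta chain of another vitronectin receptor, made up between 1.78% and 2.66%. A noncoding RNA gene on the opposite strand, Gm13684, covers 5.90% of the exonic bases of Itgav in the annotation and was not analysed here.

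Itgb8, the chain that pairs with alpha v alone, was the scarcest. It had 56, 17, 38, 94, 55 and 55 reads, or 1.80, 0.491, 1.09, 2.48, 1.58 and 1.55 CPM. Library 2 was lowest, with an interval from 0.286 to 0.787 CPM, and library 4 highest, with 2.003 to 3.03 CPM. The interval of library 2 overlapped only that of library 3, and libraries 1, 3, 5 and 6 had overlapping intervals. The fold range of 4.62 became 2.21 without library 2, 3.38 without library 4 and 2.57 on FPKM with a pseudocount of 0.1. Itgb8 made up between 0.0759% and 0.429% of the beta chain FPKM that can pair with alpha v.

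Itga2b, which encodes the platelet chain alpha IIb, was low but present in every library. It had 288, 325, 381, 453, 331 and 351 reads, or 9.27, 9.39, 10.9, 11.9, 9.51 and 9.87 CPM, a range of 1.29-fold. Library 4 was highest and library 1 lowest, with intervals from 10.9 to 13.1 CPM and from 8.23 to 10.4 CPM. Itga2b did not follow Itgb3, and its ratio to Itgb3 in FPKM was 0.155, 0.154, 0.197, 0.336, 0.290 and 0.282. With GENCODE lengths the median of that ratio would be 0.150 in place of 0.240. Of 12 markers of megakaryocytes and platelets, 6 had a row in the table. These 6 summed to between 0.0862 and 0.231 CPM. Gp5, a platelet glycoprotein gene and the most abundant of them, had 2 to 4 reads, and Pf4, the platelet factor 4 gene, had 1 read in library 2 and 0 in the other 5.

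Of 16 further integrin chains, 14 had a row and 7 reached a mean of 1 CPM. Itga7, the laminin-binding alpha chain best known from muscle, stood at 436, 448, 409.8, 226, 227 and 246 CPM. It was lowest in libraries 4, 5 and 6, with a fold range of 1.99. With the lengths behind the deposited FPKM, at 57.5, 59.2, 54.5, 32.4, 32.6 and 35.02 FPKM, it was above Itgav in libraries 1, 2 and 3 and below it in libraries 4, 5 and 6. Itga3, another laminin receptor chain, stood at 35.5, 39.7, 34.6, 18.1, 21.4 and 19.4 CPM. Its range of 2.19-fold made it the 1 chain of these 7 at 2-fold or more, where 10.5% of all genes were. Without library 2, or on FPKM with a pseudocount of 0.1, 0 of the 7 ranged 2-fold, and 2 did with DESeq2 size factors or without library 1 or library 3. Itga6, also a laminin receptor chain, ranged from 47.2 to 52.1 CPM.

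The alpha chains that can pair with beta 1 differed between libraries in sum and in makeup. The summed FPKM of its 11 partners with a row was 2.41, 2.46, 2.35, 1.68, 1.62 and 1.71 times that of Itgb1. Itga7 made up 45.4%, 46.3%, 43.6%, 34.2%, 34.6% and 36.6% of that sum. Itgav made up between 32.2% and 38.5%. The share of Itga4 was 2.82%, 2.77%, 2.96%, 5.92%, 5.52% and 5.23%.

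**Figure D4:**
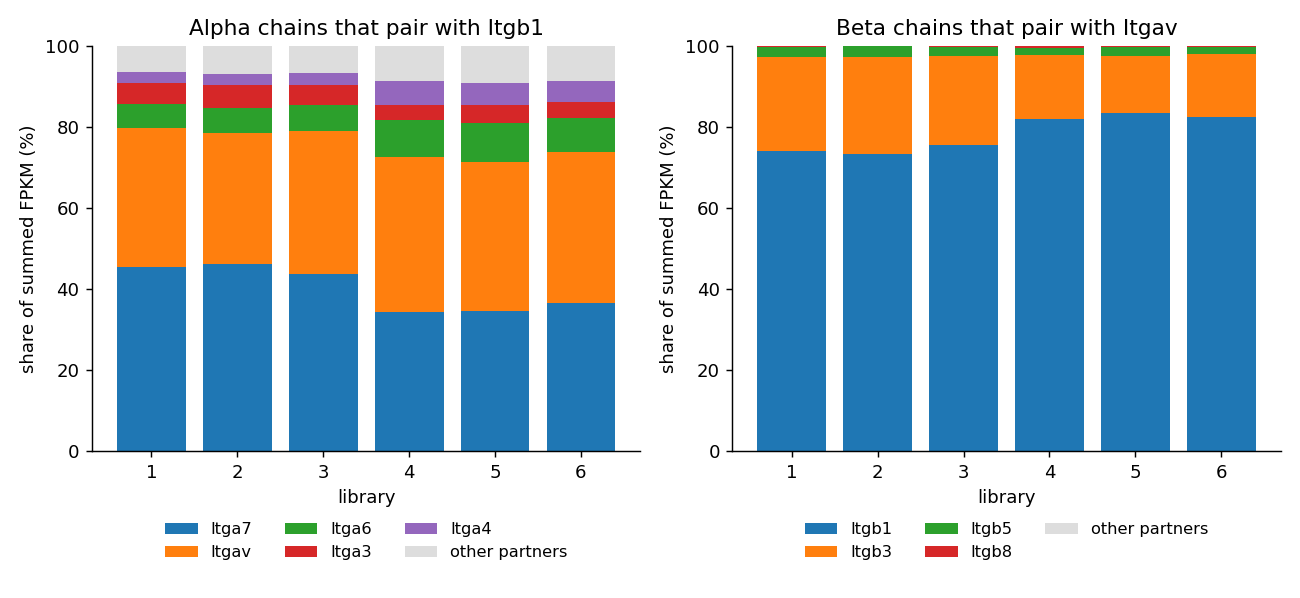
Share of summed FPKM, in percent, of the alpha chains that can pair with Itgb1 (left) and of the beta chains that can pair with Itgav (right), with 1 bar per library. Itga7 takes from 34.2% to 46.3% of the left sum, and Itgb3 from 14.3% to 24.0% of the right sum.

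Transcripts of other cell types were compared with those of the chains. Kit, a receptor of mast cells and progenitors, ranged 2.002-fold. Like Itgb3 it was lowest in library 5, at 6.35 CPM, and highest in library 2, at 12.8 CPM. Hdc, the histidine decarboxylase gene, named after its values were seen, ran otherwise, from 5 reads or 0.161 CPM in library 1 to 29 reads or 0.765 CPM in library 4. The 4 mast cell and basophil markers with a row summed to between 6.61 and 13.0 CPM, and Cpa3 and Fcer1a, which define those cells, had at most 1 read. Ebf1, a B cell factor, ranged 7.21-fold. It had its lowest value in library 4, 2.08 CPM, and its highest in library 1, 15.4 CPM. Cd79a and Cd79b, the signalling chains of the B cell receptor, ranged 2.34-fold and 2.04-fold and were named after their values were seen. The part of such transcripts in the levels of Itgb3, Itgav or Itga7 was not tested.

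Markers of the remaining types were scarce. The 6 natural killer cell markers summed to between 0.862 and 2.78 CPM, with Klrc1, an inhibitory receptor, as the most abundant. The 5 endothelial markers with a row summed to between 0.169 and 0.545 CPM, with Esam, an adhesion molecule, at no more than 13 reads. The 6 stromal markers with a row summed to between 1.66 and 2.61 CPM, mostly Col1a1, a collagen chain, which ranged 1.51-fold. In bulk RNA, fewer cells of a type and less RNA per cell cannot be told apart.

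Among 22 genes of integrin ligands, 10 were at 1 CPM or above on average. Of these 10, 3 had a range of 2-fold or more, where 10.5% of all genes did. The median was 1.67-fold, beside 1.33 for the chains and 1.29 for all genes. The list was chosen with earlier results of these data known, so its count and median only describe the genes listed. Spp1, which encodes osteopontin, a ligand of alpha v and alpha 4 integrins, stood at 35.6, 34.1, 32.2, 6.83, 7.33 and 6.97 CPM. Tgfb3, a TGF-beta whose latent form alpha v integrins bind, stood at 90.4, 89.5, 81.1, 25.5, 24.1 and 26.7 CPM, a range of 3.75-fold. Both were lowest in libraries 4, 5 and 6, as Itgav and Itgb3 were. The third was Thbs1, a matrix glycoprotein gene with a mean of 1.39 CPM and a range of 2.26-fold, named after its values were seen. Tgfb1, the most abundant ligand gene, ranged 1.22-fold, from 152 to 184 CPM.

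The genes inside the cell that act on integrins were given by role. Among all genes averaging 1 CPM or above, 10.5% ranged 2-fold and 27.6% ranged 1.5-fold. At 10 CPM or above, where most of the listed genes lay, the shares were 3.33% and 13.5%. These lists too were chosen with earlier results of these data known, so their counts only describe the genes listed. Of 23 genes of integrin activation, 19 were measured at 1 CPM or above and 0 ranged 1.5-fold, with a median of 1.22-fold. Rap1b, the small GTPase that switches integrins to their active form, ranged from 331 to 374 CPM, and Skap2, an adaptor, was the most variable at 1.46-fold. Of 19 genes that link integrins to actin, 16 were measured and 0 ranged 1.5-fold, with Flna, a filamin, from 327 to 453 CPM and Actn1, an alpha-actinin, at 1.42-fold. Of 24 integrin signalling genes, 1 ranged 2-fold, Syk, a kinase with a mean of 2.37 CPM and a range of 2.61-fold, named after its values were seen. It was under 2-fold without library 1 and on FPKM with a pseudocount of 0.1. Rac2, a GTPase of leukocytes, was the most abundant of that list and ranged 1.11-fold. Bcar1, a docking protein of focal adhesions, was its most variable gene above 10 CPM, at 26.7, 28.5, 26.3, 16.3, 15.95 and 16.3 CPM.

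**Figure D5:**
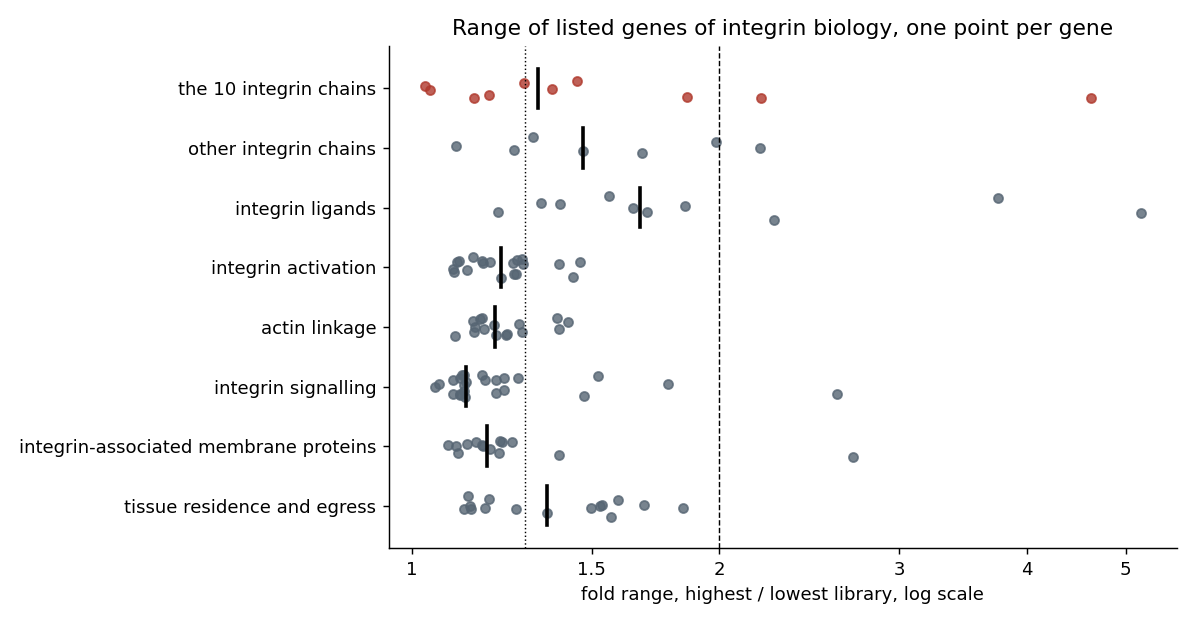
Fold range of each gene averaging 1 CPM or above, on a log axis, by list, with a bar at the median of each list, a dotted line at the median of all genes and a dashed line at 2-fold. The ligands have the highest median at 1.67-fold, and integrin signalling the lowest at 1.13-fold. The lists were chosen with earlier results of these data known.

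Membrane proteins that associate with integrins and genes of tissue residence completed the lists. Of 15 associated membrane proteins, 14 were measured and 1 ranged 2-fold, Cd63, a tetraspanin with a mean of 3.86 CPM and a range of 2.70-fold, named after its values were seen. It was under 2-fold without library 4. Cd53, a leukocyte tetraspanin, was the most abundant and ranged 1.19-fold, and Bsg, which encodes basigin, ranged 1.39-fold. Of 21 genes of tissue residence and egress, 15 were measured, 0 ranged 2-fold and 6 ranged 1.5-fold. With plain total counts 1 of them ranged 2-fold. Among all genes averaging 1 CPM or above, 10.5% ranged 2-fold and 27.6% ranged 1.5-fold. Both lists were chosen with earlier results of these data known, so their counts only describe the genes listed. Runx3, a factor known to act on Itgae in T cells, stood at 420.3, 412, 386, 276, 275 and 299.6 CPM. Klf2, a factor of circulating T cells, stood at 11.9, 14.4, 13.4, 21.8, 22.0 and 19.7 CPM.

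The genes with the most similar profile were sought for each chain among 1083 named genes that averaged 10 CPM or above and ranged 1.5-fold or more. Likeness was the mean absolute difference over the 6 libraries between log2 CPM centred on each gene's median. Itgb3 was nearest to Icos, a co-stimulatory receptor, with a difference of 0.022 log2 units, and to Bcar1, with 0.029. Itga4 was nearest to Rbm43 and Ppip5k2, with 0.029 and 0.030, and Itgav to Rsbn1 and Vps54, with 0.043 and 0.044. Itgae was nearest to Malat1, a long nuclear RNA, with 0.11, and to Castor2, with 0.11. Malat1 stood at 1417, 1117, 1049, 777, 881 and 1159 CPM, so that it too was highest in library 1 and lowest in library 4.

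The nearest genes of the other 6 chains were between 0.075 and 0.33 log2 units away. Itgb7 was 0.075 from Tmem97 and 0.082 from Ttc27, Itgal 0.085 from Pex19 and 0.11 from Jagn1, and Itga2b 0.086 from Zfp931 and 0.090 from Mzt1. Itgb1 was 0.12 from Mzt1 and 0.13 from Pex19, and Itgb2 was 0.13 from Pelo and 0.14 from Fgl2. Itgb8 was the farthest, 0.33 from Zfp942 and 0.36 from ND2, a mitochondrially encoded gene. The level chains ranged less than any gene they could be matched with, since only genes with a range of at least 1.5-fold were searched.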

How the data were processed

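Gene expression was measured by RNA sequencing of CD4+ T cells of the mouse in 6 libraries. The authors deposited raw read counts per gene and FPKM values per gene, each with 1 column per library. Per the submitters' processing notes, GRCm39 was the build and HISAT2, fastp, HTSeq, DESeq2 and R 3.2.0 the tools, with roles, annotation and strand setting not given in the sources used here. For 11541 genes with at least 20 reads per library, the deposited FPKM were the counts divided by a fixed gene length and the library total, within a relative 3.57e-08, and so are no separate evidence.

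Counts were scaled with TMM factors of edgeR 4.0.16 in R 4.3.3 to CPM, and fold ranges used a prior count of 2. Alternatives used size factors of DESeq2 1.42.0, plain totals, FPKM with a pseudocount of 0.1, a prior count of 0.5, a filter at 5 CPM or no filter in place of 1 CPM, and each library left out. Chain ratios with GENCODE M21 exonic lengths were added after the data were seen. Python 3.11.15 with pandas 2.3.3, numpy 2.4.6, scipy 1.17.1 and matplotlib 3.10.9 was used. No 2 libraries agreed within counting error, with a chi-square per gene from 3.75 to 57.3 over the pairs. A floor of 3 counts is between 0.0791 and 0.0966 CPM.

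The chains and lists were chosen with earlier results of these data known. Named genes were all 10 chains, the most abundant member of each list, the most variable one that averaged 10 CPM or above, list members at 2-fold or more that averaged 10 CPM or above, and the 2 nearest profiles per chain. Symbols were used as deposited. Of 50-base runs in the chains' GENCODE transcripts, 7.51% for Itga4, 5.40% for Itgav, 1.05% for Itgb2 and 0.0860% for Itgb3 also occur in another gene, and 0% for the other 6. The procedure was also run on simulated data with counting error only. The real libraries differed by more than counting error, so that run does not cover their spread.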

Additional observations from a re-analysis of the deposited data

How the results depend on the processing

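The number of chains at 2-fold or more, 2 as reported, was 1 on FPKM with a pseudocount of 0.1 and 0 of 8 with a minimum mean of 5 CPM, which removes Itgae and Itgb8. Leaving out each library gave between 1 and 2. The number at 1.5-fold or more, 3 as reported, was 1 with that minimum and was 3 or 4 in the other alternatives run. The number with extreme intervals apart, 9 as reported, was 10 with plain total counts, so Itgb1 was then no exception. It was 8 without library 4, 7 of 8 with that minimum and 9 in the other alternatives run for it. For fold ranges of single chains, 6 of 60 values with a library left out and 15 of 40 other values lay outside the counting interval. With GENCODE lengths the medians of 7 of 9 chain ratios lay outside the range of their libraries. The ratio of Itgav to Itgb3 and its inverse are both counted among the 9 and among the 7. With a library left out, the median ratio of Itga2b to Itgb3, 0.240 over all 6, was 0.197 or 0.282. Without a minimum level, 7 of 14 further integrin chains and 11 of 22 ligand genes ranged 2-fold or more. The share over all genes without a minimum was not computed, so these counts say nothing about the lists. Some of these chains had very few reads, such as Itga1 with between 1 and 5. No paired analysis was possible because the labels give no groups and no number that pairs libraries. Depth limits Itgae, with 582 reads over the 6 libraries, and Itgb8, with 315. No other chain had fewer than 2129.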

Other observations

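The 6 libraries had values that fell into separate clusters for some chains. The widest gap between sorted log2 CPM values lay between libraries 1, 2 and 3 and libraries 4, 5 and 6 for 4 of the 10 chains, Itga4, Itgb7, Itgav and Itgb3. It covered 63.2%, 56.5%, 65.8% and 71.8% of their range. Itga4 (49.2, 48.9 and 50.5, then 71.0, 65.9 and 64.0 CPM) and Itgb7 (188, 185 and 181, then 207, 211 and 216 CPM) were lower in libraries 1, 2 and 3. Itgav (319, 301 and 319, then 245, 233 and 241 CPM) and Itgb3 (104, 106 and 96.3, then 61.6, 56.8 and 60.6 CPM) were higher there. The same gap was the widest for 34.8% of all genes averaging 1 CPM or above and for 47.2% of those at 50 CPM or above, where it was for 4 of 7 chains. For Itga4 the interval of library 3 ended at 53.0 CPM and that of library 6 began at 61.4 CPM, and for Itgav the interval of library 4 ended at 249.6 CPM and that of library 2 began at 295 CPM. Over the genes compared in each pair, between 13072 and 13294, the chi-square per gene was between 3.75 and 6.44 for the 6 pairs within libraries 1, 2 and 3 or within libraries 4, 5 and 6, and between 46.7 and 57.3 for the 9 pairs across. The labels do not say what separates these libraries.

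With TMM scaling, the remaining 6 chains had their widest gap elsewhere. For Itgae and Itgal it set a single library above the rest, library 1 at 4.18 CPM and library 6 at 624 CPM. For Itgb8 it set library 2 below the rest at 0.491 CPM. For Itgb2 it set libraries 4 and 5, at 417 and 418 CPM, below the other 4. For Itga2b it set libraries 3 and 4, at 10.9 and 11.9 CPM, above the other 4, and for Itgb1 the widest gap was 0.018 log2 units. With plain total counts the widest gap of Itgal, Itgb1 and Itgb2 also lay between libraries 1, 2 and 3 and libraries 4, 5 and 6. Itgal stood at 539, 532 and 524, then 595, 610 and 645 CPM. Itgb1 stood at 221, 218 and 223, then 237, 244 and 235 CPM, and Itgb2 at 416, 414 and 421, then 436, 436 and 450 CPM. For Itga2b library 4 alone was then set above. The share of all genes was not computed with plain totals.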
